A study of Homo sapiens with 4 samples.

Results

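Of the 7142 sgRNAs counted in the screen, 195 (2.73%) were absent from the PBS library and present in every oxaliplatin library. They were chosen by their counts: an sgRNA was taken when it had 0 counts with PBS and at least 20 CPM (the count over the library total, scaled to a total of 1000000) in each of the 3 oxaliplatin libraries. The difference between PBS and oxaliplatin is therefore how these sgRNAs were picked, and it is described here without a test. They lay on 187 of the 1773 targeted genes, 179 with 1 such sgRNA and 8 with 2, and no gene held 3 or 4. The 8 genes were CES1, LIPM, ACER2, GDPD5, PLD5, PIGP, HPSE2 and NUDT12.

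In a pooled knockout screen each cell carries an sgRNA that guides the Cas9 nuclease to 1 gene, and sequencing the sgRNAs afterwards counts how common each knockout is among the cells still alive. A knockout that helps cells to live through a drug gains share, and several sgRNAs against the same gene should then gain together, since they make the same loss. An sgRNA can also be scarce in a library because few cells received it or because few copies of it were amplified. Oxaliplatin is a platinum drug that crosslinks DNA and is used against colorectal cancer.

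The cells were HCT116, an established human colon carcinoma line, infected with a lentiviral library of 4 sgRNAs for each of 1773 metabolic enzyme genes plus 50 entries of 1 sgRNA. The cells were infected and selected with puromycin before they were divided, so every group carried the same library. 1 group received PBS and 3 groups received 10 µM oxaliplatin, each for 7 days. No library from before the treatment was analysed here, so an sgRNA lost during the PBS culture cannot be told apart from one that few cells of that group carried at the start, and with 1 PBS library the PBS side of each comparison has no replicate.

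The library totals were 8934799 counts with PBS and 27563013, 10494731 and 11146921 in oxaliplatin replicates 1, 2 and 3. Counts of 0 were frequent with PBS, at 1354 sgRNAs (19.0%), against 164, 22 and 2 in the oxaliplatin libraries, so the library that lacked most sgRNAs was the PBS library. Oxaliplatin replicates 2 and 3 resembled each other more than either resembled replicate 1. Over the 195 sgRNAs, Pearson's r of log2 CPM was 0.782 between replicates 2 and 3, 0.215 between 1 and 2 and 0.206 between 1 and 3, a description over sgRNAs that share their library and that the minimum of 20 CPM truncates.

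The gap between absent and present was wide, as the rule required. At the PBS depth, 20 CPM would be 179 counts, whereas 0 counts allow a share of up to 3.36e-05% (a floor of 3 counts, 0.336 CPM). The minimum of 20 CPM alone is 59.6-fold above that floor, so a gap of this size follows from the rule. Each of the 195 sgRNAs was at least 60.2-fold higher in its lowest oxaliplatin library than the floor. The highest single value, that of an ELOVL6 sgRNA in replicate 1, was at least 7363-fold above the floor. These bounds cover counting error only, since PCR copies were counted with no identifier for the starting molecule.

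With oxaliplatin the median level of the 195 sgRNAs was above that of all sgRNAs in replicate 1 and below it in replicates 2 and 3. The rule fixed the direction in replicate 1, where the median of all sgRNAs was under the minimum of 20 CPM. The absent sgRNAs ranged from 20.2 to 2472 CPM in replicate 1 with a median of 60.1 CPM. In replicate 2 they ranged from 20.2 to 631 CPM with a median of 55.2 CPM, and in replicate 3 from 20.4 to 467 CPM with a median of 66.4 CPM. The medians over all 7142 sgRNAs were 18.0, 66.2 and 79.0 CPM. The 2590 sgRNAs that met the same minimum and had at least 100 counts with PBS had higher medians, at 103, 178 and 195 CPM. The 3 oxaliplatin libraries differed by a median of 2.44-fold (highest over lowest CPM) within an absent sgRNA, with 70 of the 195 under 2-fold and 47 at 4-fold or more. Within the 2590 well-counted sgRNAs the same spread was larger, with a median of 2.93-fold, so such differences were not particular to the absent sgRNAs. Replicate 1 held the highest value for 94 of the 195, replicate 2 for 37 and replicate 3 for 64. These counts are given for the absent sgRNAs alone.

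The PBS counts of sgRNAs present with oxaliplatin lay either low or high, with few between, and so did those of the sgRNAs that missed the minimum. Among the 3179 sgRNAs that met the minimum in all 3 oxaliplatin libraries, 195 (6.13%) had 0 counts with PBS, 228 had 1 to 2 and 129 had 3 to 9, only 37 had 10 to 99, and 2590 had 100 or more. The 357 sgRNAs with 1 to 9 counts with PBS stood at median levels of 77.7, 139 and 149 CPM in oxaliplatin replicates 1, 2 and 3, above those of the absent sgRNAs in each library. Among the 3963 sgRNAs that did not meet the minimum in all 3, 29.2% had 0 counts with PBS. A further 0.606% of them had 10 to 29, 2.02% had 30 to 99 and 48.6% had 300 or more.

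The minimum of 20 CPM in every library removed most of the sgRNAs at 0 with PBS. Of these 1354, 293 reached it in oxaliplatin replicate 1, 520 in replicate 2 and 664 in replicate 3. Of these, 300 reached it in replicates 2 and 3 but not in replicate 1, and 614 reached it in none. Just inside were an AHCY sgRNA at 24.4, 20.2 and 28.1 CPM, an NT5C2 sgRNA at 20.2, 76.0 and 143 CPM and an ALOX5 sgRNA at 48.2, 34.5 and 20.4 CPM. Just outside were an ETFB sgRNA at 26.6, 19.9 and 34.1 CPM, an SDR16C5 sgRNA at 24.9, 19.8 and 25.5 CPM and a CAD sgRNA at 630, 19.6 and 21.3 CPM. The sgRNAs with 1 count with PBS that met the minimum numbered 138.

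The deposited files name each sgRNA by a number and its target gene and hold no guide sequence, so the guides are not printed and the sgRNAs are given by their numbers.

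CES1, a carboxylesterase of liver that hydrolyses ester drugs and lipids, was alone among the 8 genes in having another sgRNA with nearly no counts with PBS that met the minimum with oxaliplatin. sgRNA_581 was at 126, 34.1 and 67.4 CPM in oxaliplatin replicates 1, 2 and 3, and sgRNA_583 at 223, 98.5 and 145 CPM, both with 0 counts with PBS. sgRNA_582 had 1 count with PBS and 94.0, 103 and 98.3 CPM with oxaliplatin, close to the same level in all 3 libraries. Its CPM ratios to PBS were 840, 919 and 878, with 95% exact intervals of 151 to 33200, 165 to 36350 and 157 to 34730 that cover counting error only. It was the sole sgRNA among the other sgRNAs of the 8 genes to pass edgeR's quasi-likelihood test (log2 fold change 10.65, Benjamini-Hochberg adjusted p = 0.0416, higher in 3 of 3 libraries). sgRNA_584 behaved otherwise: it had 1900 counts with PBS and 2939, 1262 and 1013 with oxaliplatin, or 213 CPM against 107, 120 and 90.9 CPM, and edgeR gave an adjusted p of 0.972.

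LIPM, a member of the acid lipase family, had sgRNA_6857 at 24.0, 49.6 and 54.8 CPM and sgRNA_6859 at 227, 38.8 and 58.0 CPM with oxaliplatin. Its sgRNA_6858 was also at 0 with PBS but stayed near absent with oxaliplatin, at 0, 14 and 22 counts. sgRNA_6860 had 1006 counts with PBS and was lower in each oxaliplatin library, at 42.2, 30.3 and 36.9 CPM against 113 CPM. The sgRNAs of LIPM thus took 3 different courses.

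ACER2, an alkaline ceramidase of the Golgi that releases sphingosine from ceramide, was alone among the 8 genes in having no sgRNA with more than 1 count with PBS. sgRNA_6851 was at 44.8, 32.1 and 51.1 CPM and sgRNA_6852 at 259, 107 and 73.9 CPM with oxaliplatin. sgRNA_6849, with 1 count with PBS, was at 12.0, 24.5 and 35.7 CPM, and sgRNA_6850, with 0, at 0.544, 17.7 and 30.1 CPM, so neither met the minimum in replicate 1. Summed over its 4 sgRNAs ACER2 was at 0.112 CPM with PBS and at 317, 182 and 191 CPM with oxaliplatin. Most of this sum came from the 2 absent sgRNAs, which the rule put at 0 with PBS. The sums of CES1, GDPD5, HPSE2 and LIPM were likewise above PBS in each oxaliplatin library, and those of NUDT12, PIGP and PLD5 were below it in each.

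GDPD5, a glycerophosphodiester phosphodiesterase that acts at the plasma membrane, had sgRNA_5809 at 471, 219 and 134 CPM and sgRNA_5810 at 46.0, 176 and 78.7 CPM. sgRNA_5811 was at 0 with PBS and at 7.44, 10.6 and 17.9 CPM with oxaliplatin, at least 22.2-, 31.5- and 53.4-fold above the floor but under 20 CPM in all 3. sgRNA_5812 had 1165 counts (130 CPM) with PBS and 1.34, 90.1 and 75.6 CPM with oxaliplatin, where replicate 1 stood far below the others.

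PLD5, a member of the phospholipase D family without known lipase activity, split into pairs. sgRNA_6621 was at 20.7, 56.7 and 33.3 CPM and sgRNA_6624 at 33.6, 54.6 and 106 CPM with oxaliplatin after 0 counts with PBS. The others were abundant with PBS and scarcer with oxaliplatin: sgRNA_6622 was at 102 CPM with PBS and 0.399, 19.6 and 15.7 CPM with oxaliplatin, and sgRNA_6623 at 209 CPM and 3.01, 61.1 and 92.4 CPM (edgeR adjusted p = 0.294 and 0.468). All 4 values of PLD5 in replicate 1 lay below those in replicates 2 and 3.

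PIGP, a subunit of the transferase that starts the GPI anchors holding many proteins at the cell surface, split in the same way. sgRNA_4651 was at 22.1, 25.8 and 45.3 CPM and sgRNA_4652 at 50.03, 25.8 and 28.9 CPM with oxaliplatin. sgRNA_4649 was at 67.5 CPM with PBS and 0.580, 22.9 and 12.9 CPM with oxaliplatin, and sgRNA_4650 at 110 CPM and 7.80, 15.9 and 26.9 CPM. Neither passed edgeR's test (adjusted p = 0.440 and 0.268).

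HPSE2, a relative of heparanase that lacks its cleaving activity, held the absent sgRNA with the highest mean CPM of the 8 genes, although in replicate 2 that of GDPD5 stood higher. sgRNA_5359 was at 535, 185 and 216 CPM, and sgRNA_5357 at 70.7, 22.9 and 34.7 CPM. sgRNA_5360 had 0 counts with PBS and only 3, 16 and 26 counts with oxaliplatin. sgRNA_5358, at 80.4 CPM with PBS, was at 23.1, 127 and 152 CPM, below PBS in replicate 1 and above it in replicates 2 and 3.

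NUDT12, a hydrolase that splits NADH and related dinucleotides, had sgRNA_5869 at 105, 21.6 and 27.0 CPM and sgRNA_5871 at 252, 22.9 and 36.0 CPM. Both stood well above the minimum only in replicate 1. The others were well counted with PBS, sgRNA_5870 at 172 CPM and sgRNA_5872 at 316 CPM, and were at 8.20, 77.5 and 59.2 CPM and at 5.73, 91.0 and 157 CPM with oxaliplatin. Replicate 1 was thus highest for the absent sgRNAs of NUDT12 and lowest for its well-counted ones.

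Across the 8 genes the 16 other sgRNAs took mixed courses: those near 0 with PBS were mostly higher with oxaliplatin, and those well counted with PBS were mostly lower. Of the 16, 4 had 0 counts with PBS, 2 had 1 count, none had 2 to 99 and 10 had 100 or more, that is 25% at 0 against 16.8% of all sgRNAs that were not chosen. After scaling each oxaliplatin library to PBS by the median of sgRNA ratios, as MAGeCK, a program for CRISPR screens, does, and with a pseudocount of 1, the 10 well-counted sgRNAs had a median log2 fold change (mean of the 3 libraries) of -2.53. They ranged from -4.09 (PLD5) to 0.14 (HPSE2). The median over all 4859 sgRNAs with at least 100 counts with PBS was -0.96, a difference of -1.57 for the 10 on the log2 scale. The 3 libraries gave medians of -4.18, -1.75 and -1.56 for the 10, so replicate 1 stood apart, and without it the median was -1.57 against -0.72 over all. Of the 16, 5 were above 0 in each library, against 37.0% of all sgRNAs with a count, and all 5 had 0 or 1 count with PBS, from where little or no decrease can be counted. 9 of the 10 were below 0 in each library, against 52.4% of all well-counted sgRNAs, and 0 of the 10 were above 0 in each, against 11.7%. Without replicate 1, 9 of the 10 were below 0 in replicates 2 and 3, against 66.5% of all well-counted sgRNAs. TMM scaling, which raised the median of all sgRNAs by 0.61, left 7 of the 10 below 0 in each library, against 37.3% of all.

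edgeR's test over 7106 sgRNAs called 595 higher with oxaliplatin (8.37%) and 0 lower at an adjusted p under 0.05, with the lone PBS library assumed to vary like the oxaliplatin libraries. The 595 include 134 of the 195 absent sgRNAs, which the rule made higher, and the shares of all sgRNAs below include absent sgRNAs too. Of the 16 other sgRNAs it called 1 higher, that of CES1, and 0 lower, with 4 higher and 0 lower at an unadjusted p under 0.05. Of all sgRNAs tested 25.8% and 1.45% were so. DESeq2 called 4 of the 16 higher and 0 lower, where it called 28.4% of all sgRNAs higher and 0.406% lower. Without oxaliplatin replicate 1 edgeR called 5 of the 16 higher and 6 lower, against 38.2% and 15.5% of all. When the libraries were scaled by their totals edgeR called 0 of the 16 and 0.00% of all in either direction, with the unadjusted counts again at 4 higher and 0 lower.

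The other sgRNAs of the genes with 1 absent sgRNA lay close to the sgRNAs of the whole library in PBS counts and median fold change. The 537 other sgRNAs of the 179 genes with 1 absent sgRNA had 0 counts with PBS in 88 cases (16.4%), 1 to 9 in 79 (14.7%), 10 to 99 in 15 and 100 or more in 355 (66.1%). Over the 6897 sgRNAs of all 1773 genes that were not chosen, the shares were 16.8%, 11.4%, 2.03% and 69.8%. The 355 well-counted sgRNAs had a median log2 fold change of -1.04, where all well-counted sgRNAs that were not chosen had -0.97, and 35 of the 355 (9.86%) were above 0 in each library. edgeR called 48 of the 531 tested higher and 0 lower (143 and 9 at an unadjusted p under 0.05). Of the 6861 tested sgRNAs of all 1773 genes that were not chosen it called 458 higher and 0 lower (1635 and 102 unadjusted). With the chosen sgRNAs included it called 8.37% and 0.00% of all sgRNAs tested (25.8% and 1.45% unadjusted). Each chosen sgRNA has 3 others on its gene, and 16 of these 585 (2.74%) were themselves chosen, next to 2.73% of all sgRNAs.

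sgRNAs just above 0 with PBS widened the set. Of the 537 others, 36 (6.70%, 95% exact binomial interval 4.74 to 9.16) had 1 to 9 counts with PBS and met the oxaliplatin minimum, against 5.13% of all sgRNAs not chosen. When fewer than 10 counts with PBS were allowed, 552 of the 7142 sgRNAs qualified, and 62 of the 1773 genes held 2 or more of them. Whether they shared genes more often than unrelated sgRNAs would was not tested. CES1, FADS3, GALT, PFKL and SHMT2 held 3 such sgRNAs each, genes named here after their values were seen. GALT, the uridylyltransferase of galactose breakdown, had 0, 5 and 7 counts with PBS for these 3 sgRNAs, and its well-counted sgRNA_1311 was at 305 CPM with PBS and 298.9, 254 and 238 CPM with oxaliplatin. PFKL, the liver phosphofructokinase of glycolysis, had 1, 2 and 5, and its sgRNA_2492 was at 95.8 CPM with PBS and 364, 247 and 220.3 CPM with oxaliplatin, higher in each library (edgeR log2 fold change 2.79, adjusted p = 0.384). FADS3, a desaturase of sphingolipid bases, had 0, 1 and 1, and its sgRNA_1895 was at 59.1 CPM with PBS and 105, 60.2 and 126 CPM with oxaliplatin (edgeR adjusted p = 0.485). Of the 4 sgRNAs of each gene, 3 were higher with oxaliplatin by the limits that named the gene, so only the well-counted sgRNA was free to differ. Its CPM was higher in each oxaliplatin library than with PBS in PFKL and FADS3 and lower in each in GALT, CES1 and SHMT2. After median-ratio scaling the log2 fold change was -0.06 for sgRNA_1895 in replicate 2 and 0.87 for sgRNA_1311 in replicate 1.

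3 of the 10 genes that the study tested singly, picked by it from these same libraries, held 1 absent sgRNA each: GCLM, SHMT2 and ALG1. That was 3 of their 40 sgRNAs (7.50%, against 2.75% over all genes), and 52.5% of the 40 were at 0 with PBS, against 19.1%. As the study chose these genes on these samples, the counts are no independent evidence. The study drew them from the genes it gives as most downregulated with oxaliplatin, keeping those highly expressed in colon and rectum adenocarcinoma. It then knocked out each singly and reports that loss of GCLM sensitised HCT116 cells to oxaliplatin most. An absent sgRNA, in contrast to the downregulated genes, is by the rule higher with oxaliplatin. Why the directions differ was not tested. The other tested genes, CYP3A5, APEH, ASS1, GGH, GFPT1, GSTO2 and AGMAT, held 0, since their sgRNAs at 0 with PBS missed 20 CPM in at least 1 library. For GCLM, the modifier subunit of the enzyme that makes the glutathione precursor, sgRNA_1405 was at 103, 31.9 and 34.7 CPM. sgRNA_1408, also at 0 with PBS, was at 10.3, 17.7 and 11.3 CPM, sgRNA_1406, with 4 counts with PBS, was at 45.7, 215 and 288 CPM (edgeR adjusted p = 0.0416), and sgRNA_1407 was at 92.8 CPM with PBS and 25.9, 79.0 and 56.9 CPM with oxaliplatin. For SHMT2, the mitochondrial serine hydroxymethyltransferase that feeds the folate cycle, sgRNA_2870 was at 166, 39.4 and 33.6 CPM. sgRNA_2869 and sgRNA_2872, with 3 and 5 counts with PBS, were at 34.7, 222 and 149 CPM and at 136, 295 and 282 CPM, and both passed edgeR's test (adjusted p = 0.0416 each). Against this, sgRNA_2871 was at 285 CPM with PBS and at 5.77, 29.6 and 118 CPM with oxaliplatin. For ALG1, the first mannosyltransferase of N-glycan assembly, sgRNA_5153 was at 47.3, 178 and 166 CPM. sgRNA_5154, also at 0 with PBS, was at 6.46, 41.6 and 35.5 CPM (edgeR adjusted p = 0.0468), and sgRNA_5156, with 1 count, at 68.0, 27.8 and 31.0 CPM (adjusted p = 0.0688). The well-counted sgRNA_5155 was at 129 CPM with PBS and 19.9, 87.9 and 93.9 CPM with oxaliplatin.

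Absent sgRNAs with the highest mean CPM were most abundant in oxaliplatin replicate 1. sgRNA_5526 of ELOVL6, which elongates saturated fatty acids, was at 2472, 57.5 and 76.6 CPM. sgRNA_1467 of GPI, the glucose-6-phosphate isomerase of glycolysis, was at 1141, 297 and 251 CPM. Its sgRNA_1465, with 3 counts with PBS, was at 9.61, 218 and 278 CPM (edgeR adjusted p = 0.0537). The well-counted sgRNAs of GPI were lower with oxaliplatin in each library, sgRNA_1466 at 75.8 CPM with PBS against 0.181, 4.00 and 17.9 CPM and sgRNA_1468 at 219 against 2.32, 83.8 and 78.0 CPM. Among the lowest by mean CPM were those of BHMT2 and AHCY, at means of 23.8 and 24.2 CPM.

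At 100 CPM or more in all 3 oxaliplatin libraries there were 16 absent sgRNAs, each on a different gene. Among these genes were CA8, DDT, FMO2, GALNS, GPI, IVD, SC5D, PLA2G2D, ADA2, BDH2, HPSE2, GNPNAT1, GDPD5, NDUFA11 and CYP4F22. The steadiest of the 16 was that of IVD, the isovaleryl-CoA dehydrogenase of leucine breakdown, at 148, 140 and 152 CPM. That of DDT, the D-dopachrome tautomerase, was highest in replicates 2 and 3, at 221, 631 and 467 CPM.

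By pathway, the absent sgRNAs were spread thinly, and each share below is read beside the 2.75% (195 of 7092) over all sgRNAs of 4-sgRNA genes. In glycan synthesis, the ER assembly of N-glycans held 6 of 104 (5.77%; PMM1, DPM1, ALG3, ALG1, ALG9 and ALG10B), heparan sulfate and hyaluronan synthesis 5 of 124 (4.03%; HS6ST1, HS3ST3B1, GLCE, XYLT2 and HS6ST2) and hexosamine synthesis 1 of 48 (GNPNAT1). No gene of these lists held 2. The folate one-carbon cycle held 4 of 88 (4.55%; SHMT1, SHMT2, ALDH1L1 and MTHFD2L), and purine and pyrimidine synthesis 2 of 100 (IMPDH1 and RRM2B). Among the genes of glutathione synthesis and recycling GCLM alone contributed, with 1 of 64, and among glutathione S-transferases GSTO1, with 1 of 72.

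In energy metabolism, glycolysis and galactose entry held 4 of 132 (GALT, GPI, LDHC and PKLR), the tricarboxylic acid cycle 3 of 100 (PDHB, SDHC and PDHX) and respiratory complex I 3 of 160 (NDUFS1, NDUFAF1 and NDUFA11). Fatty acid synthesis, elongation and desaturation held 3 of 80 (ACACB, FADS3 and ELOVL6), fatty acid activation and mitochondrial oxidation 2 of 108 (ACADVL and CPT1C), the diacylglycerol kinases 0 of 40 and the urea cycle, arginine and creatine enzymes 3 of 88 (CKB, CKMT1B and NOS3). Cytochrome P450 enzymes held 8 of 216 (3.70%), on 8 genes. Core essential metabolic genes, needed for growth by most cell lines, held 6 of 328 (1.83%) and enzymes restricted to other tissues 6 of 248 (2.42%), while 22.6% and 16.1% of their sgRNAs were at 0 with PBS.

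Relatives of the 8 genes were grouped by gene symbol after their values were seen, and the counts are given as a description. Each group was formed around a gene that held 2, so at least 2 per group were fixed beforehand. No share here can therefore be read against the 2.75% over all genes. From 8.33% (PLD genes) to 50% (heparanases) of a group's sgRNAs were at 0 with PBS, against 19.1% over all genes. The 4 carboxylesterase genes held 2 absent sgRNAs of 16, both on CES1. The 2 heparanase genes held 2 of 8, both on HPSE2, and the 3 alkaline ceramidases 2 of 12, both on ACER2. The 6 glycerophosphodiester phosphodiesterases held 2 of 24, both on GDPD5, and the 6 PLD genes 2 of 24, both on PLD5. Of the 21 PIG genes of GPI anchor synthesis (5 of 84), PIGB, PIGO and PIGM held 1 each beside PIGP. NUDT1 and NUDT2 held 1 each among 22 NUDT genes (4 of 88), and LIPI 1 among 11 LIP lipases (3 of 44).

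The absent sgRNAs came from every place in the numbering within a gene. Ordered by sgRNA number, the sgRNAs in places 1, 2, 3 and 4 of a gene gave 57, 43, 40 and 55 of the 195, or 3.21%, 2.43%, 2.26% and 3.10% of the 1773 in each place.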

How the data were processed

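Genomic DNA of the surviving cells was amplified at the sgRNA region by PCR, and the authors deposited read counts for each sgRNA, 1 column per library, used here as deposited. MAGeCK (version not given) is named in the submitters' processing notes, as is the mouse build mm10, although the cells are human, and no coordinates were used. The series table and the files of single libraries held equal counts for 100% of the sgRNAs. The oxaliplatin libraries differed by more than sampling noise and were kept as 3. Chi-square per degree of freedom was 87.4 between replicates 2 and 3, 1978 between 1 and 2 and 1993 between 1 and 3.

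CPM used library totals of 8934799 to 27563013 counts. Fold changes used MAGeCK's median ratio (geometric means of count + 1) against PBS and a pseudocount of 1, with well counted meaning at least 100 counts with PBS. edgeR 4.0.16 (filterByExpr, TMM, quasi-likelihood test, Benjamini-Hochberg over all sgRNAs tested, threshold 0.05) and DESeq2 1.42.0 ran in R 4.3.3, and the rest in Python 3.11.15 with numpy 2.4.6, pandas 2.3.3 and scipy 1.17.1. The edgeR step was tested on simulated data. p-values measure only the spread between the oxaliplatin libraries, which may be technical, since 1 PBS library gives no spread. Genes described are those with 2 or more absent sgRNAs, the 10 genes the study tested and, of the 3 highest and 3 lowest sgRNAs, those reported here (some items are not reported); the part of this rule for genes with 3 or 4 found none, and its part for the highest and lowest other sgRNAs fell among the 8 genes described in full. Other genes were named after their values were seen. The absent sgRNAs and the 18 gene lists were chosen with earlier results of these data known. Of 187 gene symbols, 186 are current in RefSeq's GRCh38.p14 table. Alternatives changed the CPM minimum, the PBS count, the scaling, the pseudocount, the count minimum, the tool, the filter and the libraries.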

Additional observations from a re-analysis of the deposited data

How the results depend on the processing

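The set and its size follow from the limits. A minimum of 10 CPM gave 341 sgRNAs and 23 genes with at least 2, 50 CPM gave 60 and 0, and 100 CPM gave 16 and 0. Fewer than 3 counts with PBS gave 423 sgRNAs and 38 genes, and fewer than 10 gave 552 and 62. Scaled by MAGeCK's median ratio, 14 genes held at least 2, all 8 among them, and by TMM 10 genes, among them 6 of the 8, without HPSE2 and NUDT12. Leaving out 1 oxaliplatin library gave 201 to 495 sgRNAs and 8 to 46 genes, the highest without replicate 1. Each of these settings held all 8 genes, which was certain beforehand, since leaving out a library only removes a condition of the rule. Of the 16 other sgRNAs, DESeq2 called 4, edgeR with total-count scaling 0, and edgeR without 1 oxaliplatin library 1 to 11, the highest without replicate 1. In each case the cause was not tested beyond the change of limit or library itself. The median of the 10 well-counted other sgRNAs stayed below 0 under the alternatives run, from -3.01 (without replicate 3) to -1.57 (without replicate 1). No paired analysis was possible because the PBS group is 1 library and shares no second replicate number with the oxaliplatin group. A level near 0 with PBS is limited by the depth of that library, where 1 count is 0.112 CPM.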

Other observations

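The 50 single entries, which name no gene, held 0 of the 195 absent sgRNAs. 1 of the 50 had 0 counts with PBS (2%, 95% exact binomial interval 0.051 to 10.6), while 1353 of the 7092 sgRNAs of genes had 0 (19.1%, interval 18.2 to 20.01). The intervals cover counting of library entries only.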
